A study of Mus musculus with 18 samples.

Results

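Transcripts of 9 genes known for platelets and their precursors, the megakaryocytes, were followed in endothelial cells of mouse embryos. The genes are Pf4, Ppbp, Itga2b, Gp1ba, Gp9, Gp6, Clec1b, Treml1 and Rgs18, and each was taken from the array rows annotated with its symbol alone, using the brightest row per gene. Of the 9 genes, 7 were measured, each by 1 row, among 19938 genes tested. Gp1ba and Gp6 had no row with a single symbol and were not analysed here.

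The study compared lymphatic endothelial cells (LEC), which line lymphatic vessels, with blood vascular endothelial cells (BEC) on Affymetrix Mouse Gene 1.0 ST arrays, whose probes lie along the exons of each gene. It forms part of work on an enhancer bound by the transcription factor GATA2 and its part in LEC identity, going by the title of the series. Each cell type was taken at embryonic day 14.5, 16.5 or 18.5 (E14.5, E16.5, E18.5), which makes 6 groups. Each group has 3 arrays from separate litters, per the design text, which also pairs LEC and BEC of an age by litter. The main fit did not use this pairing. The labels name no treatment, and the sources used here do not give strain, genotype, the tissue of origin within the embryo or the way the cells were separated.

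Platelets are cell fragments shed by megakaryocytes, which are haematopoietic cells related to the erythroid and mast cell lineages. In the embryo they have a role in vessel development: the platelet receptor CLEC-2, the product of Clec1b, binds podoplanin (Pdpn) on LEC, and platelet activation there keeps the lymphatic vessels separate from the blood vessels. Other platelet receptors bind matrix and plasma proteins, among them glycoprotein VI (collagen), the glycoprotein Ib-IX-V complex (von Willebrand factor) and integrin alpha IIb beta 3 (fibrinogen).

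The 7 measured genes did not vary as one group. Rgs18 was higher in LEC at all 3 ages and Pf4 was higher in LEC at E16.5 and E18.5, while Ppbp, Clec1b, Gp9, Treml1 and Itga2b were lower in LEC than in BEC at E14.5. Ppbp then fell in BEC at both age steps, and Pf4 rose in LEC at both, the second time near the threshold. The levels of Pf4 and Ppbp, chemokine genes that neighbour each other, correlated at -0.17 over the 18 arrays.

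Pf4 and Ppbp lie next to each other in the mouse genome, with start sites 3917 bases apart on the plus strand of chromosome 5 and 0 genes listed between them (RefSeq, GRCm38.p6). The 250 bases before the start site are shown for this pair, and for Gp9 and Clec1b, whose levels ran closest to that of Ppbp among the measured members. They are from the RefSeq promoter table, which held 6 of the 7 measured members (no entry matched Rgs18). They were searched on both strands for the core letters of GATA factors (AGATAA and, as another form, TGATAA), of ETS factors (AGGAAG and, as another form, CGGAAG), of RUNX factors (TGTGGT) and of NF-E2 and AP-1 (TGACTCA), and capitals mark the matches. No 2 of the printed matches overlap. The windows are chr5:90772185-90772434 for Pf4, chr5:90768268-90768517 for Ppbp, chr6:87777820-87778069 for Gp9 and chr6:129397047-129397296 for Clec1b, all on the plus strand and written 5′ to 3′.
Pf4: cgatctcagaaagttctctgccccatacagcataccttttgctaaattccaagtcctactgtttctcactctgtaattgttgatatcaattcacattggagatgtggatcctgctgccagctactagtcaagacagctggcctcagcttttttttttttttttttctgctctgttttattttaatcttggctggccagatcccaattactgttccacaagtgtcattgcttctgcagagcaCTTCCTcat
Ppbp: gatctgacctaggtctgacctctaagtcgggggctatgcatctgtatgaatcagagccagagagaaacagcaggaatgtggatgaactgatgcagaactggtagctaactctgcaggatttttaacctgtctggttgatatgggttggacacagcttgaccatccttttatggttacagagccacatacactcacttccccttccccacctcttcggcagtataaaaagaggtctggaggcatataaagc
Gp9: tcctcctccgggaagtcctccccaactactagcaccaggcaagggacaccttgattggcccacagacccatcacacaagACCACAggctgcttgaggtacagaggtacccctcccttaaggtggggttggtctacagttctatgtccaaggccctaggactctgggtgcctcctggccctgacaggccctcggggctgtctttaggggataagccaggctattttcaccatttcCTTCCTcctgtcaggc
Clec1b: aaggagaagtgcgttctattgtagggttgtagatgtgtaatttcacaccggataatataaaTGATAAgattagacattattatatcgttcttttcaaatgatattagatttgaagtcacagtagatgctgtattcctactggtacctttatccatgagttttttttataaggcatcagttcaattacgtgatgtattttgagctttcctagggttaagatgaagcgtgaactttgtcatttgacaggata

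The Pf4 window held 1 ETS match, 4 to 9 bases before the start site and on the opposite strand. Ppbp held none of the searched letters in its window. Gp9 held 1 ETS match at 11 to 16 bases and 1 RUNX match at 166 to 171 bases before the start, and Clec1b held 1 GATA match at 184 to 189 bases. Of the windows not shown, that of Itga2b held 2 ETS matches and that of Treml1 held none. Over 27025 promoter windows of the same length, 39.0% held an ETS match, 17.0% a GATA match, 14.2% a RUNX match and 4.4% the NF-E2 and AP-1 letters. A match describes letters and not a bound site, and a window without one shows only that these letters are not in it.

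The values are log2 expression values, so that a difference of 1 is a 2-fold difference, and a level is read within a gene and not between genes. A level counted as dim on an array when it lay at or below the 95th percentile of 1194 olfactory and vomeronasal receptor genes on that array, a bound that lay between 4.42 and 4.98. Arrays of a group correlated at 0.986 to 0.996, and the array medians lay between 5.43 and 5.58. The E18.5 arrays had a smaller interquartile range (mean 3.29) than the earlier ones (mean 3.54), which touches every step from E16.5 to E18.5. All 6 measured LEC markers, such as Prox1 and Lyve1, were higher in LEC at each age and all 7 BEC markers, such as Flt1 and Emcn, were lower, and the 5 pan-endothelial markers were above the bound on every array. Of 4 hepatocyte genes, Alb, Afp and Ttr were dim on all arrays, and Apoa1 was above the bound on all arrays but 1, with group means of 4.85 to 5.33, and lower in LEC over the 3 ages by 0.24 ± 0.09 (limma adjusted p = 0.047). The isolates are bulk samples, in which fewer cells of a type and less RNA per cell cannot be told apart. In what follows each difference is given with its limma standard error (SE) and a p adjusted over all 19938 genes, each group has n = 3 arrays, and the threshold for a call was an adjusted p of 0.05.

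**Figure D1:**
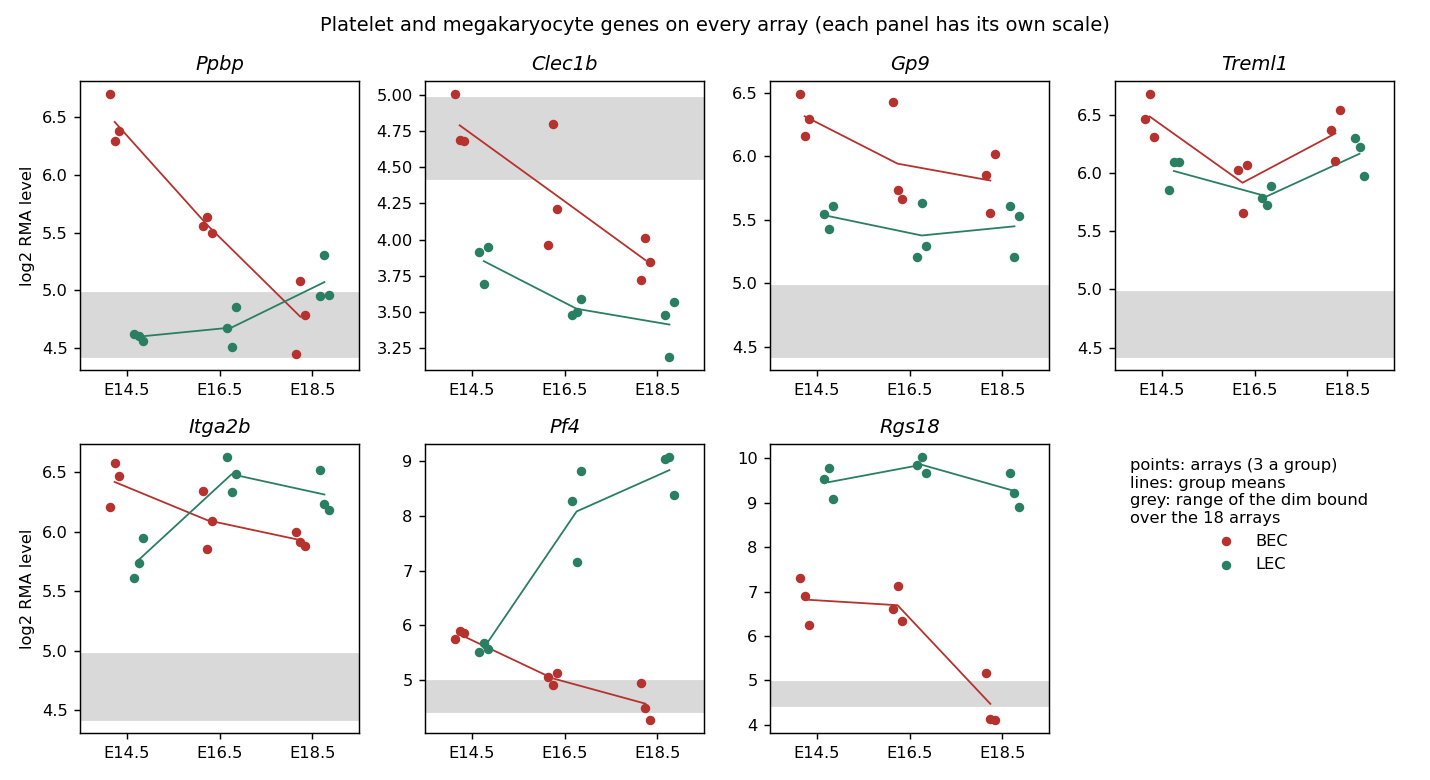
Log2 level of the 7 measured genes on every array, by embryonic day, with BEC in red and LEC in green; each panel has its own scale, points are arrays, lines join group means and the grey band is the range of the dim bound over the 18 arrays. Ppbp in BEC runs down from 6.70 to 4.45, Pf4 in LEC runs up from 5.50 to 9.08, and most Clec1b points lie in or under the grey band.

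Pf4 and Ppbp encode CXC chemokines (CXCL4, or platelet factor 4, and the precursor of CXCL7) that megakaryocytes store in alpha granules. The level of Pf4 was 5.75, 5.89 and 5.86 on the BEC arrays of E14.5, 5.06, 4.90 and 5.13 on those of E16.5, and 4.93, 4.49 and 4.27 on those of E18.5, which were all dim. On the LEC arrays it was 5.50, 5.67 and 5.57 on E14.5, 8.27, 7.16 and 8.81 on E16.5, and 9.05, 9.08 and 8.38 on E18.5. All LEC arrays from E16.5 on thus lay above all other arrays, with LEC E16.5 and LEC E18.5 overlapping each other, and at E14.5 the LEC arrays lay just under the BEC arrays. The difference at E14.5 was -0.25 ± 0.28 (95% interval -0.84 to 0.34) and was not called (limma adjusted p = 0.69). At E16.5 Pf4 was higher in LEC by 3.05 ± 0.28, or 8.29-fold (limma adjusted p = 6.5e-08). At E18.5 it was higher by 4.27 ± 0.28 (limma adjusted p = 6.2e-10), which against the dim bound in BEC is at least 16.0-fold.

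The rise of Pf4 in LEC from E14.5 to E16.5 was 2.50 ± 0.28 (limma adjusted p = 1e-05), and its change in BEC over the same step was -0.80 ± 0.28 and not called (limma adjusted p = 0.079), although the BEC arrays of these ages did not overlap. That change passed without LEC E16.5 replicate 2 or LEC E16.5 replicate 3 (limma adjusted p = 0.012 and 0.037). It also passed with the compared groups alone, array weights or a variance trend (limma adjusted p = 0.002, 0.017 and 0.043). The changes differed between the cell types by 3.30 ± 0.40 (limma adjusted p = 0.00012). A second, smaller rise in LEC from E16.5 to E18.5, of 0.76 ± 0.28, was near the threshold (limma adjusted p = 0.046). It was lost when any 1 of 14 of the 18 arrays was left out, and without LEC E16.5 replicate 2, the low array of its group, it was 0.29 (limma adjusted p = 0.31). The difference between the cell types at this second step was 1.22 ± 0.40 and not called (limma adjusted p = 0.1), although it passed without LEC E16.5 replicate 3 (limma adjusted p = 0.019).

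Ppbp, unlike Pf4, was called lower in LEC at E14.5 and E16.5. Within each cell type its changes had the same sign as those of Pf4 at both steps, although not all were called. The BEC levels of Ppbp were 6.70, 6.30 and 6.38 on the arrays of E14.5, 5.56, 5.64 and 5.49 on those of E16.5, and 4.45, 5.08 and 4.78 on those of E18.5, and these 3 groups did not overlap. The LEC levels were 4.62, 4.60 and 4.56 on the arrays of E14.5, 4.67, 4.51 and 4.85 on those of E16.5, and 4.95, 5.31 and 4.96 on those of E18.5. Only the BEC arrays of E14.5 and E16.5 stood clear of the others, and at E18.5 the LEC and BEC arrays overlapped. Ppbp was lower in LEC by 1.86 ± 0.15 at E14.5, a 3.64-fold higher level in BEC (limma adjusted p = 1.8e-08). At E16.5 the difference was -0.89 ± 0.15 (limma adjusted p = 0.00012), and at E18.5 it was 0.30 ± 0.15 and not called (limma adjusted p = 0.14). Leaving out BEC E18.5 replicate 2 gave 0.45 at that age, with limma adjusted p = 0.031.

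In BEC, Ppbp fell by 0.90 ± 0.15 from E14.5 to E16.5 (limma adjusted p = 9e-04) and fell by 0.79 ± 0.15 from E16.5 to E18.5 (limma adjusted p = 0.00072). In LEC the first step was 0.08 ± 0.15 (limma adjusted p = 0.8), and the second was a rise of 0.39 ± 0.15 (limma adjusted p = 0.048). That rise was lost when any 1 of 13 arrays was left out, with arrays shifted to a common median (0.28, limma adjusted p = 0.18) and with quantile normalization (0.24, limma adjusted p = 0.29). The changes of Ppbp differed between LEC and BEC by 0.98 ± 0.21 at the first step (limma adjusted p = 0.016) and by 1.19 ± 0.21 at the second (limma adjusted p = 0.0041). Without BEC E14.5 replicate 1, the highest Ppbp array, the first of these had a limma adjusted p of 0.053.

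Clec1b encodes CLEC-2, the podoplanin receptor of platelets. The BEC levels of Clec1b were 5.005, 4.69 and 4.68 on the arrays of E14.5, 3.96, 4.80 and 4.21 on those of E16.5, and 3.72, 4.01 and 3.85 on those of E18.5. The LEC levels were 3.91, 3.69 and 3.95 on the arrays of E14.5, 3.48, 3.50 and 3.59 on those of E16.5, and 3.48, 3.19 and 3.57 on those of E18.5. Only 3 of the 18 arrays were above the dim bound, all of them BEC (replicates 1 and 3 at E14.5 and replicate 2 at E16.5), so the LEC levels are known only as bounds. At each age the 3 LEC arrays lay under the 3 BEC arrays. The difference was -0.94 ± 0.17 at E14.5 (limma adjusted p = 0.00034), -0.80 ± 0.17 at E16.5 (limma adjusted p = 0.0011) and -0.45 ± 0.17 at E18.5, where it was not called (limma adjusted p = 0.052). The E18.5 difference passed without any 1 of 4 arrays, among them BEC E16.5 replicate 2 (limma adjusted p = 0.013), and with a common median, quantile normalization or a filter on dim genes (limma adjusted p = 0.042, 0.037 and 0.038). Against the bound, the E14.5 level in BEC was at least 1.18-fold higher, and at the later ages no fold can be given because the BEC mean was itself under the bound.

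The change of Clec1b in BEC from E14.5 to E16.5 was -0.46 ± 0.17 (limma adjusted p = 0.087), and it was -0.70 (limma adjusted p = 0.0081) without BEC E16.5 replicate 2, the high array of its group. Clec1b fell by 0.47 ± 0.17 in BEC from E16.5 to E18.5 (limma adjusted p = 0.041), a call made on levels that were mostly dim and lost without BEC E16.5 replicate 2, BEC E18.5 replicate 1 or BEC E18.5 replicate 3. For Pdpn, the ligand of CLEC-2, LEC exceeded BEC by 2.26 ± 0.17 at E14.5, by 3.57 ± 0.17 at the next age and by 3.81 ± 0.17 at the last age (largest limma adjusted p = 6.7e-09). At E14.5 the receptor and its ligand thus differed between the isolates in opposite directions, and at the later ages the Clec1b levels were mostly dim.

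Gp9 encodes glycoprotein IX, a subunit of the complex that binds von Willebrand factor. The BEC levels of Gp9 were 6.49, 6.16 and 6.30 on the arrays of E14.5, 6.43, 5.73 and 5.67 on those of E16.5, and 5.85, 5.55 and 6.02 on those of E18.5. The LEC levels were 5.54, 5.43 and 5.61 on the arrays of E14.5, 5.21, 5.63 and 5.29 on those of E16.5, and 5.61, 5.21 and 5.53 on those of E18.5. All 18 values were above the dim bound, and LEC and BEC did not overlap at E14.5 or E16.5 but overlapped at E18.5. Gp9 was lower in LEC by 0.79 ± 0.18 at E14.5 (limma adjusted p = 0.0036) and by 0.57 ± 0.18 at E16.5 (limma adjusted p = 0.026), and the difference at E18.5 was -0.36 ± 0.18 (limma adjusted p = 0.15). The second of these calls did not hold without BEC E16.5 replicate 1 (-0.32, limma adjusted p = 0.19), LEC E16.5 replicate 1 (-0.48, limma adjusted p = 0.11) or LEC E16.5 replicate 3 (-0.52, limma adjusted p = 0.084). No age step of Gp9 was called in either cell type, but without BEC E16.5 replicate 1, the high array of its group, the first step in BEC passed (-0.61, limma adjusted p = 0.03). In the order of the group means, BEC E14.5, BEC E16.5, BEC E18.5, LEC E14.5, LEC E18.5 and LEC E16.5, all neighbours overlapped.

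Treml1 encodes a receptor that platelets hold in alpha granules until they are activated. The BEC levels of Treml1 were 6.47, 6.68 and 6.31 on the arrays of E14.5, 6.02, 5.66 and 6.07 on those of E16.5, and 6.37, 6.10 and 6.54 on those of E18.5. The LEC levels were 5.86, 6.10 and 6.10 on the arrays of E14.5, 5.79, 5.73 and 5.88 on those of E16.5, and 6.30, 6.22 and 5.98 on those of E18.5. BEC and LEC stood apart at E14.5 only, and all neighbours in the order of the group means overlapped. The difference there was -0.47 ± 0.14 (limma adjusted p = 0.025), and it was -0.12 ± 0.14 at E16.5 (limma adjusted p = 0.64) and -0.17 ± 0.14 at E18.5 (limma adjusted p = 0.38). The E14.5 call was lost without BEC E14.5 replicate 1 (limma adjusted p = 0.06), BEC E14.5 replicate 2 (limma adjusted p = 0.15) or LEC E14.5 replicate 1 (limma adjusted p = 0.13). In BEC, Treml1 fell by 0.57 ± 0.14 from E14.5 to E16.5 (limma adjusted p = 0.015) and then rose by 0.42 ± 0.14 (limma adjusted p = 0.028). The fall was lost without BEC E14.5 replicate 2 or BEC E16.5 replicate 2, and the rise without BEC E16.5 replicate 2, BEC E18.5 replicate 1 or BEC E18.5 replicate 3, and with arrays shifted to a common median.

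Itga2b encodes integrin alpha IIb, which pairs with the product of Itgb3 and is also made by early haematopoietic progenitors. The BEC levels of Itga2b were 6.21, 6.58 and 6.47 on the arrays of E14.5, 6.34, 5.86 and 6.09 on those of E16.5, and 5.99, 5.91 and 5.88 on those of E18.5. The LEC levels were 5.61, 5.74 and 5.94 on the arrays of E14.5, 6.63, 6.34 and 6.48 on those of E16.5, and 6.52, 6.23 and 6.18 on those of E18.5. The LEC arrays lay under the BEC arrays at E14.5, overlapped them at E16.5 and lay above them at E18.5. In the order of the 6 group means, from LEC E16.5 down to LEC E14.5, all neighbours overlapped. Itga2b was lower in LEC by 0.65 ± 0.14 at E14.5 (limma adjusted p = 0.0017). It was higher in LEC by 0.39 ± 0.14 at E16.5 (limma adjusted p = 0.047) and by 0.38 ± 0.14 at E18.5 (limma adjusted p = 0.042), and each of these calls was lost when any 1 of 9 arrays was left out.

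The change of Itga2b in LEC from E14.5 to E16.5 was a rise of 0.72 ± 0.14 (limma adjusted p = 0.0015). Its change in BEC over that step was -0.32 ± 0.14 (limma adjusted p = 0.15), and the changes differed by 1.04 ± 0.19 (limma adjusted p = 0.0058). Itgb3, the gene of the beta 3 subunit, was lower in LEC by 1.01 ± 0.10 at E14.5 (limma adjusted p = 4e-07), differed by 0.04 ± 0.10 at E16.5 (limma adjusted p = 0.86) and was higher by 0.29 ± 0.10 at E18.5 (limma adjusted p = 0.038). Beta 3 also pairs with the endothelial alpha V subunit, so its gene is not particular to platelets.

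Rgs18 encodes a regulator of G-protein signalling that is made by megakaryocytes and other haematopoietic cells and limits platelet activation. The LEC levels were 9.53, 9.78 and 9.08 on the arrays of E14.5, 9.86, 10.03 and 9.68 on those of E16.5, and 9.67, 9.22 and 8.90 on those of E18.5. The BEC levels of Rgs18 were 7.30, 6.91 and 6.25 on the arrays of E14.5, 6.62, 7.12 and 6.34 on those of E16.5, and 5.17, 4.14 and 4.12 on those of E18.5. All 9 LEC arrays lay above all 9 BEC arrays, and the BEC arrays of E18.5 lay under the other BEC arrays, with 1 of the 3 above the dim bound. The excess of Rgs18 in LEC was 2.64 ± 0.30 at E14.5 (6.25-fold, limma adjusted p = 1.5e-06), 3.16 ± 0.30 at the next age (8.95-fold, limma adjusted p = 7.3e-08) and 4.79 ± 0.30 at the last (limma adjusted p = 2.3e-10). No fold is given for the last age, because the BEC mean of 4.47 lay under the dim bound and 1 of the 3 arrays was above it.

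The widening came with a drop in BEC, where Rgs18 fell by 2.22 ± 0.30 from E16.5 to E18.5 (limma adjusted p = 3e-05), while its change in LEC was -0.59 ± 0.30 (limma adjusted p = 0.13). These changes differed by 1.63 ± 0.42 (limma adjusted p = 0.037), a call lost when any 1 of 9 arrays was left out and with array weights (limma adjusted p = 0.098). The LEC arrays of E16.5 and E18.5 did not overlap. The LEC change passed narrowly with the compared groups alone (limma adjusted p = 0.05, rounded). From E14.5 to E16.5 the change of Rgs18 was 0.39 ± 0.30 in LEC (limma adjusted p = 0.45) and -0.13 ± 0.30 in BEC (limma adjusted p = 0.82).

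**Figure D2:**
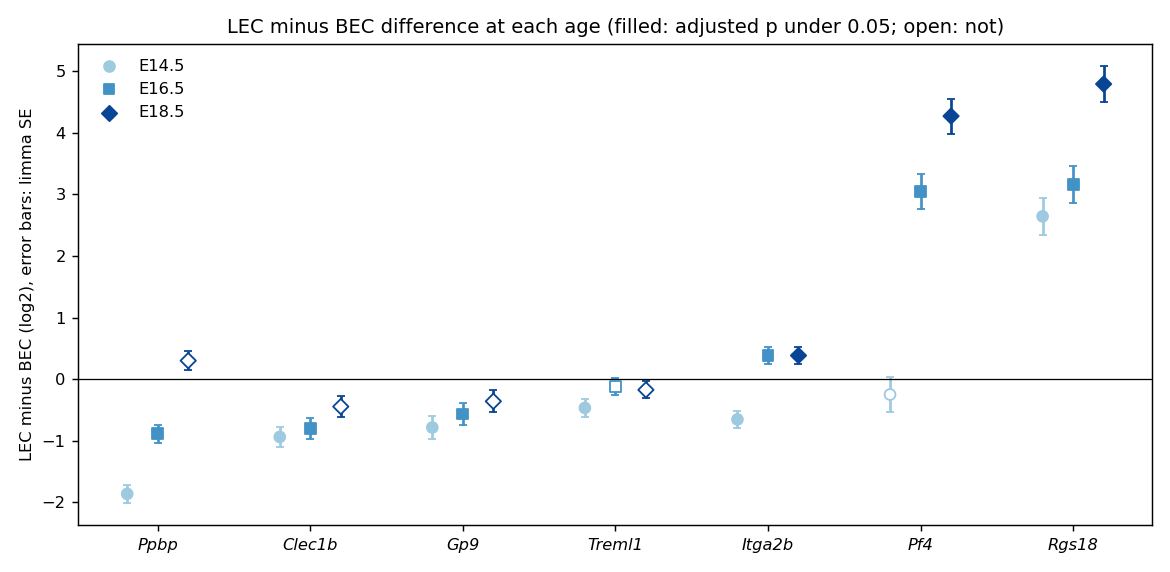
LEC minus BEC difference of log2 level for each measured gene at E14.5 (circles), E16.5 (squares) and E18.5 (diamonds), with limma SE as error bars; filled symbols passed an adjusted p of 0.05. Rgs18 lies above 0 at each age, Pf4 moves from -0.25 to 4.27 and Ppbp from -1.86 to 0.30.

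Counted over the measured members, the difference averaged over the 3 ages was called higher in LEC for 2 of 7 (Pf4 by 2.36 ± 0.16 and Rgs18 by 3.53 ± 0.17) and lower for 4 of 7 (Ppbp by 0.82 ± 0.09, Clec1b by 0.73 ± 0.10, Gp9 by 0.57 ± 0.10 and Treml1 by 0.25 ± 0.08). Their limma adjusted p values ran from 2.1e-12 to 0.018. Of all genes tested, 18.2% were called higher and 19.0% lower in this comparison. At E14.5 the members counted 1 higher and 5 lower, against 8.60% and 7.94% of all genes. At E16.5 they counted 3 higher and 3 lower, against 13.0% and 12.2%, and at E18.5 3 higher and 0 lower, against 14.6% and 15.9%. At E18.5 the 4 members not called had limma adjusted p values between 0.052 and 0.38, and Clec1b alone of these had an unadjusted p under 0.05. The median difference of the members was -0.65, -0.12 and 0.30 in the order of age, beside -0.03, -0.00 and -0.04 over all genes. Itga2b, uncalled over the 3 ages at 0.04 ± 0.08 (limma adjusted p = 0.76), averaged a lower level in LEC at the first age with higher ones later.

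Between ages the counts ran from 2 to 4 members. From E14.5 to E16.5 in LEC, 2 of 7 rose (Pf4 and Itga2b) and 0 fell, against 8.07% and 5.72% of all genes. From E16.5 to E18.5 in LEC, 2 rose (Pf4 and Ppbp) and 0 fell, against 15.9% and 18.5%, so a count of this size is close to the background. In BEC, 0 rose and 2 fell (Ppbp and Treml1) at the first step, against 5.10% and 4.66%, and 1 rose (Treml1) and 3 fell (Ppbp, Clec1b and Rgs18) at the second, against 15.8% and 16.4%. The changes with age differed between the cell types, more upward in LEC, for 3 of 7 members at the first step and 2 of 7 at the second, against 1.89% and 1.53% of all genes, and 0 members differed the other way, against 0.742% and 2.12%. None of the counts of 0 here hid a member with an unadjusted p under 0.05. Scaling bears on the age steps: with arrays shifted to a common median, the rises among all called genes were 26.6% in place of 46.3% for the second step in LEC, 30.5% in place of 49.1% for the second step in BEC and 66.4% in place of 52.2% for the first step in BEC. The same shift moved the median of all genes from 0.05 to -0.07 at the second step in LEC.

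Levels of the members fell into sets when correlated over the 18 arrays, which share 6 groups, so that these values describe group means as much as arrays. Ppbp correlated at 0.80 with Clec1b and at 0.69 with Gp9, Gp9 at 0.72 with Clec1b, and Pf4 at 0.73 with Rgs18. The sets were not clean: Pf4 also correlated at 0.60 with Itga2b, and Gp9 at 0.54 with Treml1. Pf4 ran against Clec1b (-0.58) and Gp9 (-0.55), and Rgs18 against Gp9 (-0.55). Once each array was expressed as its deviation from its group mean, no pair of members reached 0.6 in either direction: the highest value was 0.54 (Treml1 and Itga2b) and the lowest -0.56 (Clec1b with Treml1 and with Itga2b). Arrays of a group that were high in Ppbp were thus not consistently high in Pf4 (0.18, or 0.46 without BEC E18.5 replicates 1 and 2), Gp9 (-0.29) or Treml1 (-0.23).

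**Figure D3:**
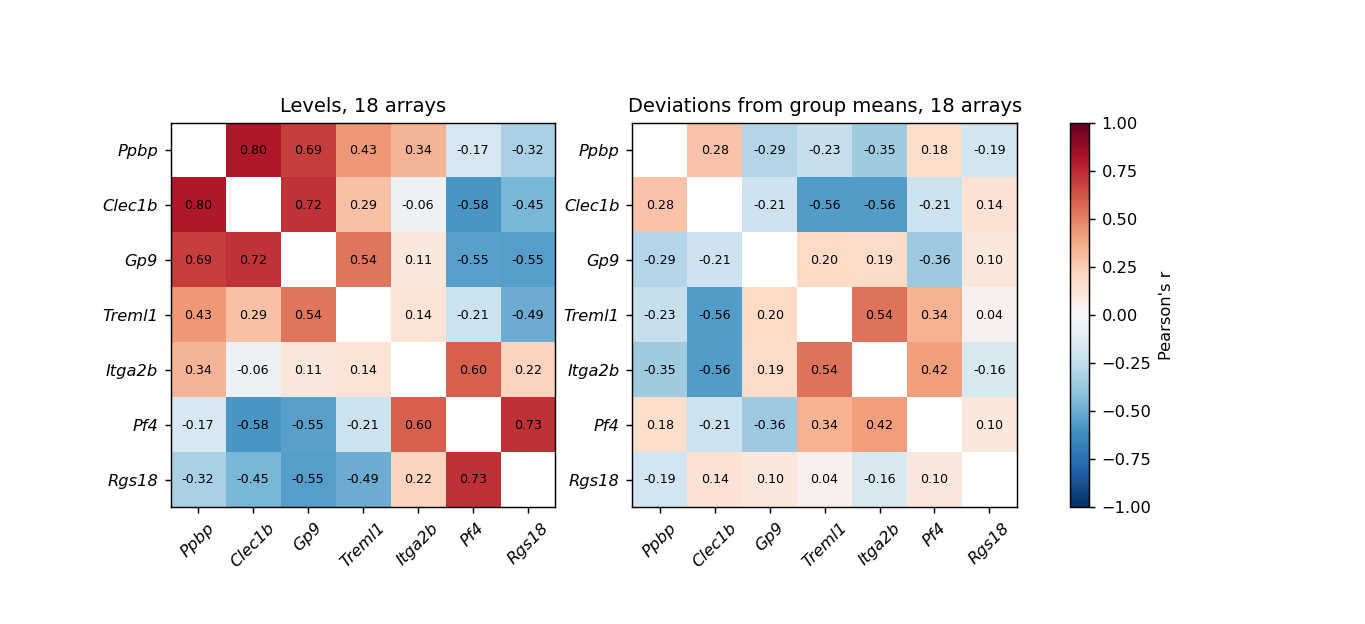
Pearson's r between the 7 measured genes over 18 arrays, from levels (left) and from deviations from group means (right), coloured from -1 to 1. Ppbp, Clec1b and Gp9 form a block of positive values on the left, at 0.69 to 0.80, that is not seen on the right, where they lie between -0.29 and 0.28.

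The genes whose levels were most like a member's were found among all others by Pearson's r over the 18 arrays. For Pf4 they were Tgfbi (0.97), Adgre1 (0.97), Fn1 (0.97), Slc40a1 (0.96) and Sytl3 (0.95). For Ppbp they were Cables1 (0.92), Ppm1l (0.90), Tubb1 (0.88), Tnfaip2 (0.88) and Slc43a2 (0.87). Tubb1 encodes the beta 1 tubulin of platelets and megakaryocytes, and it was lower in LEC by 1.11 ± 0.17 at E14.5 (limma adjusted p = 7.1e-05) and by 0.79 ± 0.17 at E16.5 (limma adjusted p = 0.0016). In BEC it fell by 0.69 ± 0.17 and then by 0.50 ± 0.17 (limma adjusted p = 0.016 and 0.033). For Rgs18 the nearest were Maob, 1700006J14Rik, Laptm5, P2rx1 and Dock2 (0.98 to 0.99). Of these, Laptm5 and Dock2 are leukocyte genes, and P2rx1 is in the lists of platelet pathway genes below. For Clec1b they were Igfbp2, B3gnt5, Bambi, Adam19 and Tro (0.92 to 0.94), for Gp9 Map3k10, Rin1, Trim46, Kank4 and Nkd2 (0.85 to 0.87), for Treml1 Gpr20, 4930451I11Rik, Chrm2, Krt88 and Phactr1 (0.84 to 0.87), and for Itga2b Gja4, Commd7, Slamf1, Trio and Chst1 (0.73 to 0.76).

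Markers of other blood cells moved with Pf4 and Rgs18 in part of the comparisons. The mean level of 9 macrophage genes was 6.04 to 6.21 on the LEC arrays of E14.5, 6.77 to 7.79 at E16.5 and 7.70 to 8.29 at E18.5, and it was 4.94 to 5.44 on all BEC arrays. Of the 9 genes, 4 were higher in LEC at E14.5 and all 9 at both later ages. In BEC at E18.5 Adgre1 and Timd4 were dim on all arrays, whereas in LEC at that age no gene of the list was dim on all 3. From E14.5 to E16.5 in LEC 7 of the 9 rose, among them Csf1r (2.07 ± 0.30, limma adjusted p = 0.00013) and Adgre1 (2.04 ± 0.31, limma adjusted p = 2e-04), in the step at which Pf4 rose by 2.50. In BEC, 1 of the 9 fell (Mrc1) at that step and 1 rose (Cd68) at the next. The Pf4 changes in BEC were -0.80 and -0.46, neither of them called. Within groups, Pf4 deviated with the macrophage mean (Pearson's r = 0.93, Spearman's rho = 0.79, 18 arrays), and r was 0.84 without LEC E16.5 replicate 2 and LEC E18.5 replicate 3, the arrays farthest from the median. Csf1r, the macrophage colony-stimulating factor receptor, was the nearest of all genes to Pf4 on this scale (0.96), followed by 4921513I03Rik (0.90), Trim8 (0.88), Abca9 (0.88) and C1qb (0.87). LEC E16.5 replicate 2 was low in Pf4 by 0.92 from its group mean, and it was low in Csf1r by 1.03 and in the macrophage mean by 0.66. The part of macrophage RNA in the Pf4 values was not tested.

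Rgs18 went with mast cell and general leukocyte genes between LEC and BEC and within groups, but not at every age step. All 7 mast cell genes were higher in LEC at each age, with a mean level of 8.83 to 9.49 on the LEC arrays of E14.5, 10.07 to 10.12 at E16.5 and 9.91 to 10.36 at E18.5. In BEC the same mean was 6.96 to 7.63, 7.73 to 8.02 and 6.11 to 7.76 at these ages, with Ms4a2 dim on all BEC arrays of E18.5. Fcer1a was dim on all BEC arrays and on all LEC arrays but 1, of E18.5, so its difference rests on dim levels. From E16.5 to E18.5 in BEC 4 of the 7 fell (Cpa3, Ms4a2, Tpsb2 and Hdc), in the step at which Rgs18 fell by 2.22. From E14.5 to E16.5, 3 rose in LEC (Mcpt4, Kit and Hdc) and 1 in BEC (Mcpt4). From E16.5 to E18.5 in LEC, 1 rose (Fcer1a) and 1 fell (Kit). Rgs18 was called at none of these other steps. Within groups, Rgs18 deviated with the mast cell mean (Pearson's r = 0.81, Spearman's rho = 0.85, 18 arrays), and r was 0.83 without BEC E18.5 replicates 1 and 2, the arrays farthest from the median. With the single mast cell gene Ms4a2 it was 0.65, or 0.61 without BEC E18.5 replicate 2 and LEC E14.5 replicate 3. With the mean of 7 leukocyte genes r within groups was 0.78. On levels, Rgs18 correlated at 0.98 with the leukocyte mean, 0.94 with the LEC marker mean and 0.93 with the mast cell mean. Of the BEC arrays of E18.5, replicate 1 had the highest mast cell mean and the highest Rgs18 level. In deviations from group means, the genes nearest to Rgs18 were Rab27b, Cd69, Srgn, Gpr65 and Lcp2 (0.92 to 0.93), all known from haematopoietic cells. Srgn and Lcp2 are also in the lists of platelet pathway genes below. Of 7 leukocyte genes, 4 were higher in LEC at the first 2 ages (Ptprc, Cd52, Coro1a and Laptm5). At E18.5 3 were higher (without Cd52) and the T cell gene Cd3e was lower by 0.34 ± 0.12 (limma adjusted p = 0.041), as it was over the 3 ages. Cd79a and Ly6g, which mark B cells and neutrophils, were dim on all 18 arrays. The part of mast cell or other leukocyte RNA in the Rgs18 values was not tested.

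**Figure D4:**
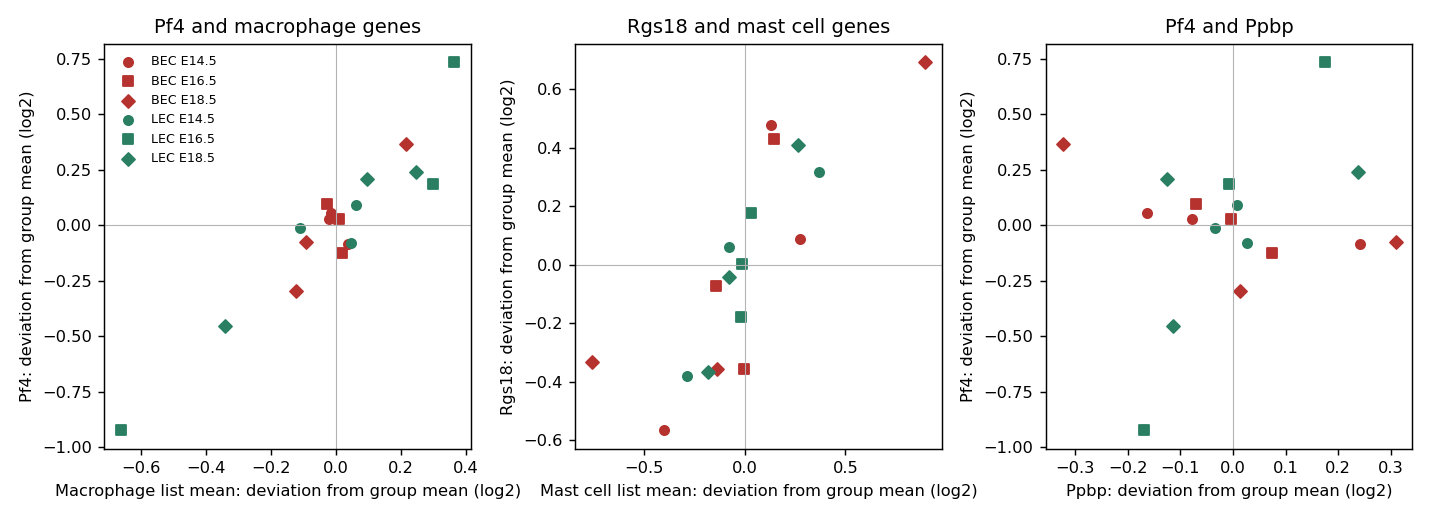
Deviation of each of the 18 arrays from its group mean (log2), for Pf4 against the mean of 9 macrophage genes, Rgs18 against the mean of 7 mast cell genes, and Pf4 against Ppbp; red is BEC, green LEC, and the shape gives the age. Pf4 and Rgs18 lie along a line with those lists (r = 0.93 and 0.81), and Pf4 with Ppbp has r = 0.18, or 0.46 without BEC E18.5 replicates 1 and 2.

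Erythroid genes were compared with the members that were higher in BEC at E14.5. Of 4 measured erythroid genes, Alas2 and Slc4a1 were lower in LEC at each age and Epor was higher at E14.5, and the list mean was 5.90 to 6.29 in BEC and 5.56 to 5.73 in LEC at E14.5. Over 18 arrays the level of that list correlated at 0.77 with Clec1b, 0.74 with Gp9, 0.57 with Ppbp and 0.46 with Treml1. It correlated at -0.22 with Itga2b and at -0.82 with Pf4. Within groups the erythroid mean had r = 0.51 with Itga2b, 0.10 with Treml1, 0.05 with Ppbp, 0.04 with Gp9 and -0.38 with Clec1b. The gene nearest to Ppbp within groups was Farp2 (0.91), which is in none of the lists. The progenitor genes Kit, Myb and Spi1 were higher in LEC at each age and Cd34, Mecom and Hoxa9 lower, and the list mean lay between 6.78 and 7.66 on all arrays. Their part in the member values was not tested.

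Other genes, of the platelet pathways and of vessel cells, were taken from 6 lists. Among 7 partners of the platelet receptors, 3 were higher and 4 lower in LEC over the 3 ages. Fcer1g, the signalling chain of glycoprotein VI and also of mast cell and macrophage Fc receptors, was higher by 2.74 ± 0.16 (limma adjusted p = 3.9e-11), and the integrin genes Itga2 and Itga6 were lower by 1.92 ± 0.08 and 0.83 ± 0.06 (limma adjusted p = 1.6e-13 and 2.6e-09). Gp5, whose product joins that of Gp9 in the receptor for von Willebrand factor, was higher in LEC by 0.32 ± 0.08 (limma adjusted p = 0.003), the opposite direction to Gp9, and was called at no single age (limma adjusted p = 0.14, 0.11 and 0.083). Gp1bb had no row with a single symbol.

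Of 11 signalling genes downstream of CLEC-2 and glycoprotein VI, 7 were higher in LEC and 1, the kinase gene Syk, was lower. Lcp2, Btk and Vav1, which also signal in mast cells and other leukocytes, were higher by 2.92 ± 0.15, 2.65 ± 0.14 and 2.13 ± 0.11 (largest limma adjusted p = 1.1e-11). Among 7 receptors for soluble agonists, 4 were higher and 2 lower. The ATP receptor gene P2rx1 and the prostacyclin receptor gene Ptgir were higher by 2.50 ± 0.13 and 0.52 ± 0.13 (limma adjusted p = 1e-11 and 0.0034), and the thrombin receptor gene F2rl3 was lower by 1.00 ± 0.13 (limma adjusted p = 4.8e-06). P2ry12 was dim on all 18 arrays.

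Of 14 granule and cytoskeletal genes, 9 were higher in LEC and 4 lower. Mmrn1, of a multimerin that LEC make as well as platelets, was higher by 4.03 ± 0.10 (limma adjusted p = 2.3e-16), and F13a1, of a clotting factor subunit also made by macrophages, by 3.90 ± 0.19 (limma adjusted p = 2.5e-12). Vwf, which blood endothelium and megakaryocytes both make, was lower by 3.33 ± 0.10 (limma adjusted p = 3.7e-15). Of 10 regulators of the megakaryocyte lineage, 5 were higher and 2, Zfpm1 and Fli1, lower. Myb, Meis1 and Gata1 were higher by 2.41 ± 0.11, 1.68 ± 0.10 and 1.52 ± 0.10 (largest limma adjusted p = 2.5e-10), and all 3 are also made in other haematopoietic cells, Gata1 in mast cells among them. Of 6 genes listed for vessel cells, Pdpn and Fn1 were higher in LEC, and Vwf, Col4a1 and Emcn lower, the last by 2.50 ± 0.08 (limma adjusted p = 2.7e-15). Pdpn and Emcn are also among the LEC and BEC markers, so their directions are those of the markers. In the same comparison 18.2% of all genes were called higher and 19.0% lower.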

How the data were processed

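RNA of 18 samples was measured on Affymetrix Mouse Gene 1.0 ST arrays. The authors deposited log2 expression values for 35556 transcript clusters. The submitters' processing notes name oligo 1.54.1 with RMA, which by design corrects background, quantile normalizes and summarizes probes. Neither the genome build nor whether all arrays were normalized together is stated in the sources read. Genes were named through the platform annotation; 21789 clusters had 1 symbol, and the cluster with the highest mean was kept per gene, leaving 19938 genes. Arrays have no read depth, and their number limits the precision.

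Group means of all 18 arrays were fitted with limma 3.58.1 in R 4.3.3 (eBayes without trend, 12 residual and 6.11 prior degrees of freedom). Two-sided p values were corrected within each comparison for all genes (Benjamini-Hochberg). The procedure was tested on simulated data. Where a gene was dim on all arrays of a group, folds were taken against the dim bound of those arrays. Alternatives were litter as a block, the compared groups alone, array weights, a common median, quantile normalization, a variance trend, a filter on dim genes, the mean of a gene's rows, leaving out each array or the E18.5 arrays.

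Members and lists were chosen with earlier results of these data known. All members are named, with the 3 called genes of each list that differed most over the 3 ages, fixed receptor partners and ligands, and the 5 genes nearest to a member in level or deviation. Syk, Zfpm1, Fli1, Col4a1 and single markers were named after their values were seen.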

Additional observations from a re-analysis of the deposited data

Results flagged for a closer look

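Changes with age differed between LEC and BEC at 1 or both steps for 4 of the 7 measured genes, by limma's test of the difference between the changes (LEC minus BEC, log2). All differed upward in LEC. Of all genes, 1.89% were called upward and 0.742% downward at the first step. At the second step the shares were 1.53% and 2.12%. At the first step, to E16.5, it was 3.30 for Pf4 and 1.04 for Itga2b, which rose in LEC, and 0.98 for Ppbp, which fell in BEC. At the second step, to E18.5, it was 1.19 for Ppbp, which rose in LEC and fell in BEC, and 1.63 for Rgs18, which fell in BEC. The Rgs18 call was lost when any 1 of 9 arrays was left out and with array weights. Without BEC E14.5 replicate 1, the first-step difference of Ppbp had a limma adjusted p of 0.053. Its rise in LEC was lost when any 1 of 13 arrays was left out, with a common median and with quantile normalization.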

How the results depend on the processing

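Of 747 values compared under the alternatives other than leaving out 1 array, 710 kept their direction and their side of the threshold, and of 1602 with 1 array left out, 1500 did. The number of members called moved by more than 1.5 times for 4 comparisons. For LEC from E16.5 to E18.5 (2) it was 1 with the compared groups alone and with quantile normalization, 0 with array weights and with a common median, and 0 to 2 with 1 array left out. For BEC from E14.5 to E16.5 (2) it was 4 with array weights and 1 to 3 with 1 array left out. For BEC from E16.5 to E18.5 (4) it was 2 with the compared groups alone and with array weights, and 2 to 4 with 1 array left out. For the difference of the changes from E16.5 to E18.5 (2) it was 1 with array weights and 1 to 2 with 1 array left out. Smaller changes, within 1.5 times, were seen for LEC minus BEC at E14.5 (6, with 5 to 6 when 1 array was left out), at E16.5 (6, with 4 to 6), at E18.5 (3, with 2 to 4) and for the first difference of changes (3, with 2 to 3). The cause was not tested, beyond the fewer arrays that some of these fits hold.

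Direction turned only for uncalled values. Itga2b over the 3 ages was -0.13 without the E18.5 arrays, as a mean of 2 ages chosen after seeing the data, and -0.0012 to 0.0796 with 1 array left out. Gp9 in LEC from E16.5 to E18.5 was -0.0466 with a common median, -0.047 with quantile normalization, and -0.0123 to 0.20 with 1 array left out. The second difference of changes of Itga2b was 0.0346 with array weights, 0.0162 with quantile normalization and -0.13 to 0.12 with 1 array left out. Other ranges with 1 array left out that crossed 0 were -0.0084 to 0.16 for Ppbp in LEC at the first step, -0.19 to 0.0033 for Clec1b in LEC at the second, -0.41 to 0.11 for Rgs18 in BEC at the first and -0.27 to 0.11 for Gp9 in BEC at the second. For the differences of changes they were -0.0454 to 0.37 for Clec1b at the first step, and -0.0374 to 0.34 for Gp9 and -0.18 to 0.0719 for Treml1 at the second.

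The design text pairs LEC and BEC by litter. Over all genes, the deviations of same-numbered samples correlated at -0.11 to 0.13, above 0.1 in 3 of 9 pairs. On that scale not every sample correlated best with its own number. Over the 7 members alone, same-numbered pairs had r of 0.88, 0.52 and 0.88 at E14.5 and of -0.17, 0.26 and 0.655 at E16.5. At E18.5 they had 0.94, 0.30 and 0.71. Pairs of unlike number at the same age ran from -0.82 to 0.57 over the members. With a replicate block (litter as a fixed term, or as a random term for the age steps), the only member call that changed was the difference of the Pf4 changes from E16.5 to E18.5, called at 1.22 (limma adjusted p = 0.048 in place of 0.1), so that this comparison called 3 members in place of 2. Clec1b, dim on 15 of 18 arrays, is limited by signal over background.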
